A study of Homo sapiens with 12 samples.

Results

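The BCL2 family decides whether the outer membrane of the mitochondrion stays intact when a cell is stressed, and 10 of its genes were followed here. They were chosen by name, for their place in the family, at a time when earlier results of these data were known: BCL2, BCL2L1 and MCL1, which encode anti-apoptotic proteins, BAX and BAK1, which encode the effectors, and BCL2L11, BBC3, PMAIP1, BID and BAD, which encode BH3-only proteins. Each had 1 row among the 70116 genes of the count table, and all 10 were among the 16197 genes that passed the filter on low counts and were tested. The cells were MiaPaCa-2, an established human pancreatic cancer line, and all 12 libraries came from cells transfected with small interfering RNA (siRNA), a short double-stranded RNA that has the cell cut transcripts of matching sequence. The 4 groups of 3 libraries each were siControl, siSLC25A1 (against the carrier that exports citrate from mitochondria), siACLY (against ATP citrate lyase, which makes cytosolic acetyl-CoA from citrate) and siACO1 (against aconitase of the cytosol, an enzyme that isomerises citrate and doubles as an RNA-binding regulator of iron genes). The labels give no siRNA sequence, number of siRNAs, nutrient condition or time after transfection, and do not say whether replicates were separate cultures, so the p-values measure the spread between these libraries, which may be technical. The series title sets the question in ferroptosis, cell death through peroxidised membrane lipids, and the comparisons below ask how transcripts of the apoptotic machinery differed between the same cells.

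As background, apoptosis through the mitochondrion begins when BAX and BAK1 proteins assemble into pores that release cytochrome c. BCL2, BCL-xL (the main product of BCL2L1) and MCL1 hold them in check, and the BH3-only proteins BIM (BCL2L11), PUMA (BBC3), NOXA (PMAIP1), BID and BAD relieve that restraint or activate the effectors directly, each with its own binding preferences. NOXA binds MCL1 preferentially, whereas BAD binds BCL2 and BCL-xL. Much of this family is controlled at the protein level, through phosphorylation, cleavage and degradation, which transcript counts do not show.

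Libraries held between 24159424 and 43792811 counts. The targeted transcripts were low in the libraries labelled for them: SLC25A1 was at 11.7 ± 1.18 CPM (counts scaled to library size; SD, n = 3) in siSLC25A1 and 134 ± 0.691 in siControl, ACLY at 36.1 ± 0.504 in siACLY and 499 ± 7.55 in siControl, and ACO1 at 1.68 ± 0.331 in siACO1 and 45.0 ± 1.57 in siControl. Of 6 markers chosen for a carcinoma line of epithelial origin, KRT8, KRT18, KRT19 and VIM, the last a mesenchymal gene, were tested. KRT7 and EPCAM were below the filter. CDKN2A, which is deleted in this line, had no counts in any library, and neither had the acinar markers PRSS1, CPA1 and AMY2A. The summed level of the markers was at most 0.388 CPM for fibroblasts (5 genes, LUM at 0), 0.201 CPM for leukocytes (4 genes, PTPRC, CD3E and MS4A1 at 0) and 0.427 CPM for endothelium (3 genes, none at 0 throughout). Replicate 3 of siACO1 stood apart from the other replicates of its group: chi-square divided by its degrees of freedom, comparing its counts with theirs, was 11.83 and 12.52, against 2.31 between those 2 and at most 5.85 between replicates elsewhere. Its log2 CPM relative to the mean of the other 2 fell with exon length (Spearman's r = -0.23 over 15384 genes). The same value was 0.131 and 0.17 for replicates 1 and 2, and from -0.099 to 0.036 in the other groups. The part of gene length in the members' results was not tested. The calls of members in siACO1 against siControl are therefore also given without replicate 3, and calls of members lost without it are named. Most other values that involve siACO1, among them the levels and ratios, include it.

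Compared per kilobase of exon in siControl, MCL1 and BAX were the most abundant members, at 60.7 ± 1.04 and 58.6 ± 2.05 CPM per kilobase, and the ranges of their 3 libraries overlapped. BCL2L1 followed at 23.9 ± 0.857, BAK1 at 21.7 ± 0.564, BID at 16.9 ± 0.401, BAD at 8.66 ± 0.310 and PMAIP1 at 4.69 ± 0.283 CPM per kilobase, each outside the range of its neighbours in this order. BBC3, at 2.93 ± 0.274, and BCL2L11, at 2.83 ± 0.221 CPM per kilobase, overlapped, and BCL2 was lowest at 1.36 ± 0.0732. BCL2 was thus the least abundant of the 3 anti-apoptotic transcripts in these cells, and the order from MCL1 to BAD was the same in all 4 groups. Lower in the order, PMAIP1 was above BBC3 without overlap in siControl, siSLC25A1 and siACLY, whereas in siACO1 the 2 were at 3.38 ± 0.380 and 3.38 ± 0.299 CPM per kilobase and overlapped. BAK1 and BID overlapped in siACLY, at 18.2 ± 1.01 and 17.6 ± 0.531, and in no other group. These levels divide by the merged exon length of each gene, so a gene with long exons that went unused would be set low. BCL2 has 11.765 kilobases of exon, and which exons were used was not measured. In CPM not divided by length, BCL2 was at 16.0 in siControl, above BAD at 14.8, PMAIP1 at 10.5 and BBC3 at 9.32.

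**Figure D1:**
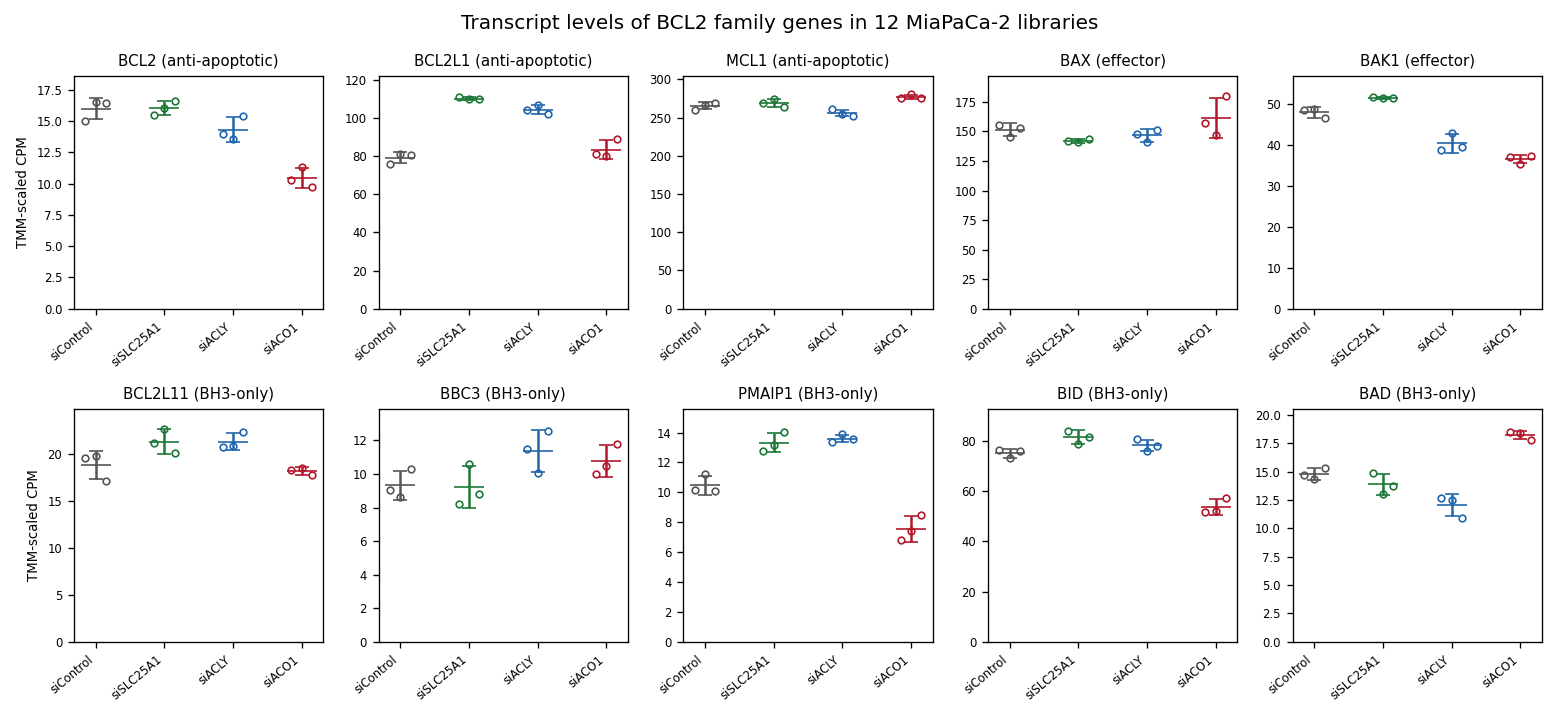
Levels of the 10 BCL2 family genes in each of 12 libraries, in CPM after TMM scaling (trimmed mean of M values), 1 panel per gene with its own axis from 0. Open circles are libraries, the horizontal mark is the mean of 3 and the bars are 1 SD; BCL2L1 is higher in siSLC25A1 and siACLY, and BCL2, PMAIP1 and BID are lower in siACO1, without overlap with siControl.

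A member was called where edgeR's quasi-likelihood test, fitted on all 12 libraries, gave an adjusted p (Benjamini-Hochberg over 16197 genes) under 0.05. The 3 comparisons with siControl use the same control libraries and are not independent of each other. After siSLC25A1, 2 of 10 members were called, both higher, where 19.6% of all tested genes were called, 10.3% higher and 9.27% lower. After siACLY, 5 of 10 were called, 3 higher and 2 lower, where 36.7% of all genes were called, 18.4% higher and 18.3% lower. After siACO1, 5 of 10 were called, 1 higher and 4 lower, where 37.1% of all genes were called, 17.8% higher and 19.3% lower. The shares of members called lie close to the background in siSLC25A1 and somewhat above it in the other 2, with 10 members a coarse count. The median log2 fold change of the members was 0.06, 0.01 and 0.01 in siSLC25A1, siACLY and siACO1, and that of all tested genes was -0.00, 0.01 and 0.01. No member differed from siControl by as much as 2-fold. Because counts are relative to each library's total, and come from whole cultures, fewer cells that express a gene and less of its RNA per cell cannot be told apart.

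BCL2L1 and PMAIP1 were the only members called in siSLC25A1, and both were also called higher in siACLY. They stand on opposite sides of the family: BCL-xL, the main product of BCL2L1, protects the mitochondrion, and NOXA antagonises MCL1. The counts are per gene, so different products of BCL2L1 were not told apart. BCL2L1 was at 75.9, 81.1 and 80.5 CPM in the 3 siControl libraries, at 111, 110 and 110 in siSLC25A1, at 104, 107 and 102 in siACLY and at 81.4, 80.0 and 89.1 in siACO1. All 6 libraries of siSLC25A1 and siACLY lay above every siControl and siACO1 library. BCL2L1 rose to 139% of siControl in siSLC25A1 (log2 fold change 0.48 ± 0.05 SE, adjusted p = 6.32e-09) and to 132% in siACLY (0.40 ± 0.05, adjusted p = 5.81e-08). In siACO1 it was not called (0.08, 95% interval -0.02 to 0.17, adjusted p = 0.201). About 42.97% of the exon bases of BCL2L1 lie under ABALON, a transcript of the other strand, which itself had 0 or 1 count per library.

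PMAIP1 was at 10.2, 11.2 and 10.1 CPM in siControl, at 12.8, 13.2 and 14.1 in siSLC25A1, at 13.4, 13.9 and 13.5 in siACLY and at 6.80, 7.38 and 8.48 in siACO1. The groups formed 3 levels that did not overlap, with siACO1 lowest, siControl between, and siSLC25A1 and siACLY overlapping at the top. PMAIP1 rose to 127% of siControl in siSLC25A1 (log2 fold change 0.34 ± 0.09 SE, adjusted p = 0.00689) and to 129% in siACLY (0.37 ± 0.09, adjusted p = 0.00143). It fell to 72.2% in siACO1 (-0.47 ± 0.10, adjusted p = 0.000246). PMAIP1 was the only member called in all 3 comparisons with siControl. These levels rest on between 169 and 595 counts per library.

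The 250 bases before the RefSeq start sites (GRCh38.p14) of BCL2L1 and PMAIP1 are shown because these members were called higher in the same 2 knockdowns, and that of BAK1 because it is the member that separated siSLC25A1 from siACLY most clearly, as described below. BCL2L1 has a second RefSeq start, at which the 250 bases (chr20:31722869-31723118, minus strand) hold no match to any motif searched and are not shown. The stretches shown lie at chr20:31723964-31724213 on the minus strand for BCL2L1, at chr18:59899746-59899995 on the plus strand for PMAIP1 and at chr6:33580277-33580526 on the minus strand for BAK1. Each is written 5′ to 3′ along its gene, and capitals mark the letters TGACG or their reverse complement CGTCA, the core of the cyclic AMP response element bound by ATF and CREB factors.
BCL2L1: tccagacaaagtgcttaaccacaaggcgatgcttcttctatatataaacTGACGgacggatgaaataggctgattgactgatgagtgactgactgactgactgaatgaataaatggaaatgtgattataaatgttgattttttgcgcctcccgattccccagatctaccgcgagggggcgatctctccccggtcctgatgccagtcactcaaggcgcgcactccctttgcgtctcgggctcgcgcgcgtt
PMAIP1: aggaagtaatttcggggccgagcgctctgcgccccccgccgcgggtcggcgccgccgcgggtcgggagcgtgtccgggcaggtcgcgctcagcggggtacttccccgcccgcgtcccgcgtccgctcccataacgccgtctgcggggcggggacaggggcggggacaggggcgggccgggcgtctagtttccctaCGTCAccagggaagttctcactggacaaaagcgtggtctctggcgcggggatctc
BAK1: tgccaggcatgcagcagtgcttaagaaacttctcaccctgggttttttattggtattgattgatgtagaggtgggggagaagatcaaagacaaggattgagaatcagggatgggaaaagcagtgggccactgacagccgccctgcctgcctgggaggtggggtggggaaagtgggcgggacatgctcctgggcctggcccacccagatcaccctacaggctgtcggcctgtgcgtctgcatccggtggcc
The match begins at position -201 from the shown start of BCL2L1 and at -55, on the other strand, of PMAIP1, and BAK1 holds no match to any motif searched. The PMAIP1 stretch is 72.8% G and C, that of BCL2L1 50% and that of BAK1 58.0%. RefSeq windows of 300 bases, from 250 before to 50 after the start, were matched for 9 of the 10 members, 15 windows in all. MCL1 was not among them. TGACG was found on either strand in 6 of the 15 windows (40%) and in 24.6% of all 35116 windows. The 6 windows belong to BAD, BAX, BCL2, BCL2L1 and PMAIP1. The part of any motif in the levels of the members was not tested. The E-box CACGTG was found in 4 of the 15 windows (26.7%), of BAX, BBC3 and BID, and in 7.26% of all windows, and the BAX window holds it at -138, -93, -45 and -14. The AP-1 motif TGANTCA was found in BBC3 alone, at -113, and in 7.71% of all windows, and the FOXO motif GTAAACA in BCL2L11 alone, at -223, and in 3.42%. The TGACG of BAX, at -134, overlaps its E-box at -138. The full element TGACGTCA (1.85% of all windows), the C/EBP-ATF motif TGATGNAA (3.62%), the EGR1 motif GCGTGGGCG (0.795%) and the E2F motif TTTCCCGC (1.63%) were found in none of the 15 windows. A match is a string of letters and not a measured site, and some windows of the same gene overlap. The BID windows with an E-box overlap and hold the same site, and so do the BAD windows with TGACG. The shares of windows thus count these sites more than once. Counted by gene, TGACG was found in 5 and the E-box in 3 of the 9 members.

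The other anti-apoptotic members behaved differently from BCL2L1. BCL2 was at 15.02, 16.6 and 16.4 CPM in siControl, at 15.5, 16.1 and 16.6 in siSLC25A1, at 13.98, 13.5 and 15.4 in siACLY and at 10.3, 11.3 and 9.73 in siACO1. The 3 siACO1 libraries lay below all 9 others. BCL2 fell to 65.3% of siControl in siACO1 (log2 fold change -0.61 ± 0.08 SE, adjusted p = 1.02e-06), the largest change of a member against siControl. In siSLC25A1 the difference was 0.01 (95% interval -0.16 to 0.17) and in siACLY -0.16 (-0.33 to 0.00), and neither was called.

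MCL1, the most abundant member, was not called in any knockdown against siControl. Its level was 260, 267 and 269 CPM in siControl, 269, 274 and 264 in siSLC25A1, 261, 255 and 253 in siACLY and 276, 281 and 275 in siACO1. The siACO1 libraries lay above all siControl libraries by a small margin, and the other groups overlapped siControl. With 6365 to 11608 counts in a library the intervals were narrow: the log2 difference from siControl was 0.02 (95% interval -0.06 to 0.10) in siSLC25A1, -0.05 (-0.13 to 0.03) in siACLY and 0.06 (-0.01 to 0.14) in siACO1.

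The 2 effectors had different patterns. BAK1 was at 48.6, 48.6 and 46.5 CPM in siControl, at 51.8, 51.4 and 51.4 in siSLC25A1, at 38.7, 42.9 and 39.5 in siACLY and at 37.0, 35.4 and 37.3 in siACO1. Its siSLC25A1 libraries were the highest and its siACLY and siACO1 libraries the lowest, with siControl between and no overlap. BAK1 fell to 84.0% of siControl in siACLY (log2 fold change -0.25 ± 0.05 SE, adjusted p = 0.000357) and to 76.3% in siACO1 (-0.39 ± 0.05, adjusted p = 8.66e-07). In siSLC25A1 it was 0.10 above siControl and not called (95% interval -0.00 to 0.21, adjusted p = 0.174). Of all 31-base words in its transcripts, 16.62% are shared with the pseudogene BAK1P1, which had 0 to 4 counts per library.

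BAX was at 156, 146 and 153 CPM in siControl, at 142, 141 and 143 in siSLC25A1, at 148, 141 and 151 in siACLY and at 157, 147 and 180 in siACO1. The siACO1 mean of 162 ± 17.0 CPM was raised by replicate 3, the library that stood apart. BAX was not called against siControl in any knockdown: the log2 difference was -0.09 (95% interval -0.20 to 0.01) in siSLC25A1, -0.05 (-0.16 to 0.06) in siACLY and 0.09 (-0.02 to 0.20) in siACO1, the last becoming 0.00 without that library. Without siACO1 replicate 2 instead, BAX was called higher in siACO1 (0.15, adjusted p = 0.0223).

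Among the BH3-only members, BID was called in siACO1 and in neither other knockdown. BID, which caspase-8 cleaves to link death receptors to the mitochondrion, was at 76.3, 73.1 and 76.2 CPM in siControl, at 84.2, 78.8 and 81.7 in siSLC25A1, at 80.7, 76.0 and 78.1 in siACLY and at 51.8, 52.2 and 57.3 in siACO1. The siACO1 libraries lay far below the other 9. BID fell to 71.6% of siControl in siACO1 (log2 fold change -0.48 ± 0.05 SE, adjusted p = 5.68e-09). It was not called in siSLC25A1 (0.12, 95% interval 0.02 to 0.22, adjusted p = 0.0875) or in siACLY (0.06, -0.04 to 0.16). Its differences between the knockdowns are tested below.

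BAD, whose product is held inactive by phosphorylation downstream of growth factor signals, moved in opposite directions in siACLY and siACO1. It was at 14.7, 14.3 and 15.4 CPM in siControl, at 14.9, 13.04 and 13.7 in siSLC25A1, at 12.7, 12.5 and 10.9 in siACLY and at 18.5, 18.4 and 17.8 in siACO1. The siACO1 libraries were above and the siACLY libraries below every siControl library. BAD fell to 81.8% of siControl in siACLY (log2 fold change -0.29 ± 0.08 SE, adjusted p = 0.00574) and rose to 123% in siACO1 (0.30 ± 0.08, adjusted p = 0.00289). In siSLC25A1 it was not called (-0.09, 95% interval -0.26 to 0.08). About 23.65% of the exon bases of BAD overlap GPR137 on the other strand, and GPR137 had log2 fold changes of -0.17 in siSLC25A1 (adjusted p = 0.0366), -0.35 in siACLY (1.1e-05) and 0.14 in siACO1 (0.0524). Whether counting used the strand is not given in the sources used here, and the part of GPR137 reads in the BAD result was not tested.

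BBC3 and BCL2L11 gave the least certain results. BBC3, a target gene of p53, was at 9.07, 8.60 and 10.3 CPM in siControl, at 8.23, 10.6 and 8.83 in siSLC25A1, at 11.5, 10.1 and 12.6 in siACLY and at 9.98, 10.5 and 11.8 in siACO1. It was called higher in siACLY (log2 fold change 0.29 ± 0.11 SE, adjusted p = 0.03), although a siACLY library lay below a siControl library. That call was lost without siControl replicate 1 (adjusted p = 0.0955), siControl replicate 2 (0.145), siACLY replicate 1 (0.0881) or siACLY replicate 3 (0.16). Against siControl, BBC3 differed by -0.01 (95% interval -0.24 to 0.21) in siSLC25A1 and by 0.21 (-0.00 to 0.43) in siACO1, and neither was called. BCL2L11 was at 19.6, 19.8 and 17.2 CPM in siControl, at 21.2, 22.7 and 20.1 in siSLC25A1, at 20.8, 20.9 and 22.4 in siACLY and at 18.3, 18.6 and 17.8 in siACO1. All siSLC25A1 and siACLY libraries lay above siControl, but BCL2L11 was not called in siSLC25A1 (0.18, 95% interval 0.03 to 0.33, adjusted p = 0.09), in siACLY (0.17, 0.03 to 0.32, adjusted p = 0.0605) or in siACO1 (-0.05, -0.20 to 0.10). MIR4435-2HG covers 10.92% of the BCL2L11 exon bases on the other strand. It had 826 to 1405 counts per library and averaged 35.9 CPM in siControl, where BCL2L11 averaged 18.9. Its log2 fold changes were -0.01 in siSLC25A1 (adjusted p = 0.908), -0.12 in siACLY (0.118) and 0.10 in siACO1 (0.204). The part of MIR4435-2HG reads in the BCL2L11 result was not tested.

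**Figure D2:**
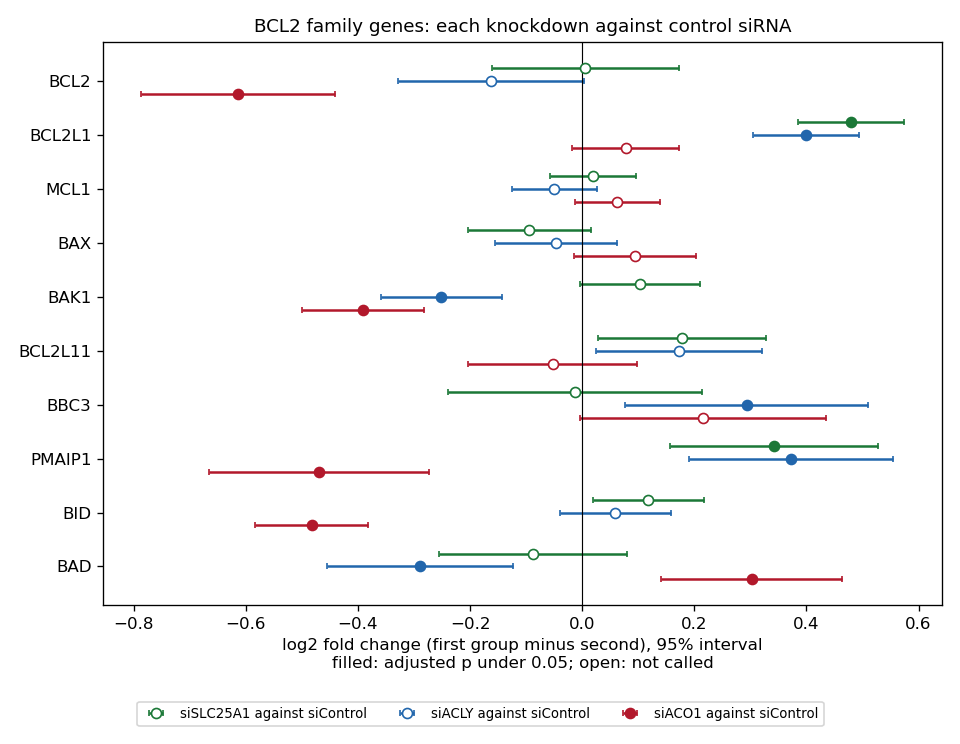
Log2 fold change against siControl for each member and knockdown (x axis; 0 is no difference), with 95% intervals from the edgeR fit; filled points are called at an adjusted p under 0.05. BCL2L1 and PMAIP1 sit to the right in siSLC25A1 and siACLY, BCL2, PMAIP1, BAK1 and BID to the left in siACO1, and BAD on either side of 0 in siACLY and siACO1.

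Of the 12 calls against siControl, 11 were kept under all 13 alternatives run for each, BBC3 in siACLY being the exception. Without replicate 3, the siACO1 log2 fold changes were -0.56 for BCL2, -0.57 for PMAIP1, -0.41 for BAK1, -0.53 for BID and 0.32 for BAD, all still called. The sum of the 6 markers chosen for the line also differed between groups. It was 7227 to 7270 CPM in siControl, 6945 to 7347 in siSLC25A1, 8094 to 8735 in siACLY and 5542 to 6021 in siACO1. The last 2 did not overlap siControl. VIM, a mesenchymal gene, averaged 3561 CPM of this sum in siControl and 4558 in siACLY, so the sum is not a measure of epithelial state. In siACO1, KRT8, KRT18 and KRT19 were lower (log2 fold changes -0.83, -0.78 and -0.76) and VIM was not called (0.02). In siACLY, KRT19 (0.67) and VIM (0.36) were higher and KRT8 and KRT18 were not called, and in siSLC25A1 KRT19 was higher (0.45) and KRT8 (-0.18) and KRT18 (-0.20) were lower. The part of these differences in the members' results was not tested.

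The knockdowns were then set against each other. Between siSLC25A1 and siACLY, 2 of 10 members were called, where 33.8% of all tested genes were called. BAK1 was higher in siSLC25A1 (log2 difference 0.35 ± 0.05 SE, adjusted p = 5.12e-06, 3 libraries against 3 without overlap). BBC3 was lower (-0.31 ± 0.11, adjusted p = 0.0303), with overlapping libraries, and that call was lost without any of 4 single libraries: siSLC25A1 replicate 1 (-0.22) or 3 (-0.27), or siACLY replicate 1 (-0.29) or 3 (-0.23). The members that rose in both did not differ detectably between them. BCL2L1 was 0.08 higher in siSLC25A1 (95% interval -0.01 to 0.17) and PMAIP1 0.03 lower on the log2 scale (difference -0.03, interval -0.21 to 0.15). BAD was 0.20 higher in siSLC25A1 (interval 0.03 to 0.37, adjusted p = 0.0642) and was called without siSLC25A1 replicate 2 (0.25, adjusted p = 0.0425).

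Against siACO1 the differences were more frequent. Between siSLC25A1 and siACO1, 8 of 10 members were called, 6 higher and 2 lower in siSLC25A1, where 42.1% of all genes were called in either direction. PMAIP1 was 0.81 ± 0.10 higher in siSLC25A1 on the log2 scale (adjusted p = 5.19e-08), BCL2 0.62 ± 0.09 (9.24e-07), BID 0.60 ± 0.05 (5.12e-11), BAK1 0.50 ± 0.05 (1.15e-08) and BCL2L1 0.40 ± 0.05 (3.57e-08), each in 3 libraries against 3. BAD was lower in siSLC25A1 than in siACO1 (-0.39 ± 0.08, adjusted p = 0.00025). BCL2L11 was higher (0.23 ± 0.07, adjusted p = 0.0135), a call lost without siSLC25A1 replicate 2 (0.19, adjusted p = 0.0767). BAX was lower (-0.19 ± 0.05, adjusted p = 0.00569), a call lost without siACO1 replicate 3 (-0.10, adjusted p = 0.0576). MCL1 (-0.04, 95% interval -0.12 to 0.03) and BBC3 (-0.23, -0.45 to -0.00, adjusted p = 0.0996) were not called, though BBC3 was called without siSLC25A1 replicate 2 (-0.34, adjusted p = 0.0281).

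Between siACLY and siACO1, 9 of 10 members were called, 6 higher and 3 lower in siACLY, where 42.1% of all genes were called. PMAIP1 had the largest difference of any member in any comparison, at 179% of its siACO1 level (log2 difference 0.84 ± 0.09 SE, adjusted p = 1.95e-08). BAD followed on the other side, at 66.4% of its siACO1 level (-0.59 ± 0.08, adjusted p = 6.36e-07). BID (0.54), BCL2 (0.45) and BCL2L1 (0.32) were higher in siACLY, with adjusted p-values of 3.83e-10, 8.25e-05 and 1.45e-06. The remaining 4 calls were smaller and each was lost under some alternative: BCL2L11 (0.23, adjusted p = 0.0137), BAK1 (0.14, 0.0374), MCL1 (-0.11, 0.0155) and BAX (-0.14, 0.0354). BAX was at -0.06 without siACO1 replicate 3 (adjusted p = 0.298) and at -0.12 without siACLY replicate 2 (0.138). Its call was also lost without siACLY replicate 1 (-0.15, 0.0655) and with only the 2 groups fitted (-0.14, 0.099). BAK1 was lost without siACLY replicate 2 (0.09) or 3 (0.15) or siACO1 replicate 1 (0.15) or 2 (0.11), and also with DESeq2 (adjusted p = 0.0553), with no filter (edgeR, 0.11) and with only the 2 groups fitted (edgeR, 0.0774). MCL1 was lost with no filter (edgeR adjusted p = 0.0637) and without siACLY replicate 3 (-0.10) or siACO1 replicate 2 (-0.11), and BCL2L11 without siACLY replicate 3 (0.19). The comparisons that share siACO1 libraries are not independent of each other either.

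**Figure D3:**
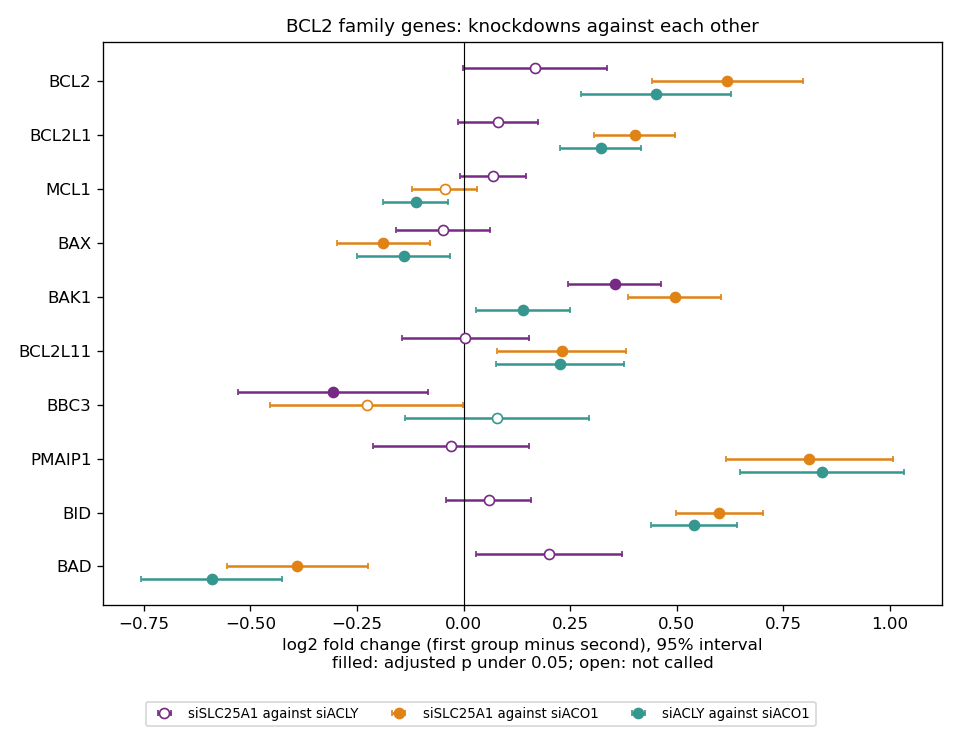
Log2 differences between knockdowns for each member (x axis; first group minus second), with 95% intervals from the edgeR fit; filled points are called. PMAIP1, BID, BCL2 and BCL2L1 are higher in siSLC25A1 and in siACLY than in siACO1, BAD is lower, and siSLC25A1 and siACLY differ in BAK1 and BBC3.

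Ratios of counts within a library do not depend on how libraries are scaled, and they set members that bind each other side by side. The pairs were chosen after the values had been seen and are given as a description. For every 100 counts of MCL1, the libraries held 3.95 ± 0.233 counts of PMAIP1 in siControl, 4.96 ± 0.318 in siSLC25A1, 5.31 ± 0.163 in siACLY and 2.73 ± 0.317 in siACO1 (SD, n = 3). The siACO1 libraries ran from 2.47 to 3.08 and lay below all others, of which the lowest siControl library was at 3.74. For every 100 counts of BCL2L1 there were 18.7 ± 0.923 counts of BAD in siControl, 12.6 ± 0.756 in siSLC25A1, 11.5 ± 0.761 in siACLY and 21.9 ± 1.68 in siACO1. Against the same 100 counts, BAK1 stood at 60.6 ± 3.19 in siControl and lower in every knockdown, at 46.7 ± 0.166 in siSLC25A1, 38.7 ± 1.58 in siACLY and 43.8 ± 1.86 in siACO1. BID stood at 95.1 ± 5.19 in siControl, 74.0 ± 1.95 in siSLC25A1, 75.0 ± 3.33 in siACLY and 64.4 ± 0.806 in siACO1. Both ratios were thus lower in all 9 knockdown libraries than in any siControl library, with BCL2L1 itself higher in siSLC25A1 and siACLY, BAK1 lower in siACLY and siACO1, and BID lower in siACO1. Ratios of transcripts say nothing of the ratios of the proteins.

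**Figure D4:**
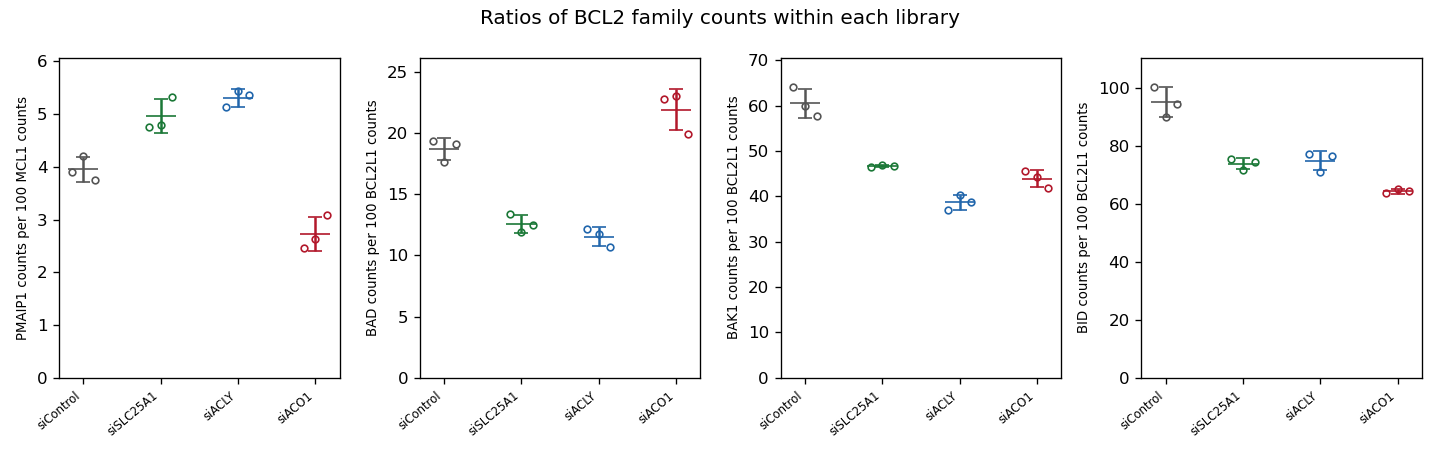
Counts of PMAIP1 per 100 MCL1 counts and of BAD, BAK1 and BID per 100 BCL2L1 counts in each library (circles), with the mean of 3 and 1 SD; each axis starts at 0. BAK1 and BID per BCL2L1 are lower in every knockdown library than in every siControl library, and PMAIP1 per MCL1 is lowest in siACO1.

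For the members called in at least 2 comparisons with siControl, the 2 genes with the most similar pattern over the 12 libraries were taken from 9958 other genes that averaged 5 CPM or more, by Pearson's r of log2 CPM. The points share 4 groups, so these values describe likeness only. PLAUR, the urokinase receptor (r = 0.977), and DUSP5, a nuclear phosphatase of ERK (r = 0.975), were nearest to BCL2L1. PLAUR was at 47.8 CPM in siControl, 92.8 in siSLC25A1, 88.4 in siACLY and 50.8 in siACO1, and DUSP5 at 9.01, 25.4, 19.9 and 10.8. ANXA5 (r = 0.981), a phospholipid-binding annexin, and CTSL (r = 0.979), a lysosomal protease, were nearest to PMAIP1. SSR1 (0.975), a subunit of the translocon-associated complex, and MPP3 (0.974) were nearest to BAK1, and SUCLA2 (0.970), a subunit of succinyl-CoA synthetase, and SEMA3C (0.964), a secreted semaphorin, to BAD.

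The rest of the apoptotic pathway was described with 9 lists of 85 other genes, of which 77 were tested. In siSLC25A1, 20 of the 77 were higher and 5 lower, in siACLY 24 and 18, and in siACO1 21 and 20. In either direction 25, 42 and 41 of the 77 were called, where 19.6%, 36.7% and 37.1% of all tested genes were. For each list gene named below, every call against siControl is given. The median log2 fold change of all 77 genes was 0.04 in siSLC25A1, 0.03 in siACLY and -0.01 in siACO1.

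Among the 2 other anti-apoptotic family genes tested, BCL2L2 was called higher in siSLC25A1 (0.18, adjusted p = 0.029) and BCL2L12 in siACO1 (0.14, adjusted p = 0.0394). The BCL2L2 call was lost without siControl replicate 1 (0.17) or 2 (0.16) or siSLC25A1 replicate 2 (0.18) or 3 (0.13), and with no filter (0.16, edgeR adjusted p = 0.0887). The BCL2L12 call was lost without siControl replicate 2 (0.10) or 3 (0.14) or siACO1 replicate 3 (0.07), and also with DESeq2 (adjusted p = 0.0632), with no filter (edgeR, 0.0728) and with only the 2 groups fitted (edgeR, 0.077). BCL2A1 and BCL2L10 were below the filter. Of 7 other pro-apoptotic family genes tested, 1 was called in siSLC25A1, 5 in siACLY (4 higher, 1 lower) and 4 in siACO1 (2 higher, 2 lower), beside 19.6%, 36.7% and 37.1% of all genes. BMF, a BH3-only gene, rose in siACLY (1.36 ± 0.29, adjusted p = 0.000527) and in siACO1 (1.29 ± 0.30, adjusted p = 0.000949). Its level stayed low, at 0.474, 0.499 and 0.572 CPM in siControl, 1.26, 1.44 and 1.27 in siACLY and 0.926, 1.46 and 1.35 in siACO1. BOK, a relative of BAX and BAK1, fell in siACLY (-0.29) and in siACO1 (-0.47), with adjusted p-values of 6.99e-05 and 3.92e-08. BOK thus fell in the same 2 knockdowns as BAK1. BCL2L13 was called higher in all 3 knockdowns, in siSLC25A1 (0.16, adjusted p = 0.00789), siACLY (0.17, 0.00232) and siACO1 (0.15, 0.00746). The call in siSLC25A1 was lost without siControl replicate 2 (0.13, adjusted p = 0.0701) or siSLC25A1 replicate 1 (0.13, 0.0549).

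Downstream of the mitochondrion, the list of apoptosome and downstream genes had 2 of 12 called in siSLC25A1, 6 of 12 in siACLY (2 higher, 4 lower) and 9 of 12 in siACO1 (3 higher, 6 lower), beside the same 19.6%, 36.7% and 37.1%. CASP9, the initiator caspase of the apoptosome, rose in siACLY (0.50, adjusted p = 1.01e-05) and siACO1 (0.36, 0.000702), and HTRA2, a mitochondrial protease, fell in siACLY (-0.58, adjusted p = 1.22e-07). In siACO1 the mitochondrial nuclease ENDOG fell (-0.73, adjusted p = 9.55e-06). DFFA, the inhibitor of the caspase-activated DNase, fell in all 3 knockdowns, with log2 fold changes of -0.15 in siSLC25A1 (adjusted p = 0.00421), -0.35 in siACLY (1.79e-08) and -0.41 in siACO1 (7.51e-10).

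The mitochondrial channel and cristae list had 0 of 8 genes called in siSLC25A1, 5 of 8 in siACLY (1 higher, 4 lower) and 2 of 8 in siACO1, beside 19.6%, 36.7% and 37.1% of all genes. VDAC1, the major channel of the outer membrane, fell in siACLY (-0.25, adjusted p = 3.08e-05) and VDAC2, which holds BAK1 at the membrane, fell in siACLY (-0.18, adjusted p = 0.00194) and siACO1 (-0.18, 0.00216). VDAC3 fell in siACLY (-0.19, adjusted p = 0.00111) and rose in siACO1 (0.18, 0.00156), and CHCHD3, a cristae protein, rose in siACLY (0.15, adjusted p = 0.00287). Of 5 inhibitors of apoptosis tested, 3 were called in siSLC25A1, 2 in siACLY and 3 in siACO1, beside the same shares. BIRC3, a ubiquitin ligase of death receptor signalling, fell in siACO1 from 32.9 to 13.9 CPM (-1.24 ± 0.07, adjusted p = 3.66e-14) and in siACLY (-0.44, adjusted p = 5.38e-06). Its call in siSLC25A1 (-0.22, adjusted p = 0.0207) was lost without siControl replicate 2 (-0.18) or 3 (-0.22) or siSLC25A1 replicate 3 (-0.15). BIRC2, its close relative, rose in siSLC25A1 (0.38, adjusted p = 4.87e-08) and fell in siACO1 (-0.41, 6.32e-09). BIRC5, or survivin, was lower in siACLY (-0.20, adjusted p = 0.00549) and was called higher in siACO1 (0.15, 0.0242), a call lost without siControl replicate 1 (0.14), 2 (0.15) or 3 (0.16) or siACO1 replicate 3 (0.11).

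In the death receptor list, 5 of 10 genes were called in siSLC25A1, all higher, 7 of 10 in siACLY (5 higher, 2 lower) and 5 of 10 in siACO1 (4 higher, 1 lower), beside 19.6%, 36.7% and 37.1% of all genes, of which 10.3%, 18.4% and 17.8% were higher. FAS, a death receptor, was called higher in siSLC25A1 (0.75, adjusted p = 0.00265) and in siACLY (0.57, adjusted p = 0.012). The call in siSLC25A1 was lost without siSLC25A1 replicate 1 (0.54, adjusted p = 0.0509), and that in siACLY without siControl replicate 1 (0.53, adjusted p = 0.0506) or 2 (0.51, 0.0584). TNFRSF1A, a receptor of TNF, fell in siACLY (-0.28, adjusted p = 9.53e-07). CASP10 rose in siACLY (0.29, adjusted p = 0.0134) and siACO1 (0.40, 0.000908), and the adaptor FADD fell in siACLY (-0.25, adjusted p = 0.0104) and siACO1 (-0.28, 0.00347).

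Genes that govern the turnover or anchoring of BCL2 family proteins were called in 3, 3 and 4 of 10 cases in siSLC25A1, siACLY and siACO1, beside 19.6%, 36.7% and 37.1% of all genes. In siACO1, FBXW7, part of a ubiquitin ligase for MCL1, rose (0.36, adjusted p = 0.000265) and SFN, a 14-3-3 protein, fell (-1.95 ± 0.32, adjusted p = 1.9e-05) from 1.25 to 0.317 CPM. USP13, a deubiquitinase of MCL1, fell in siACLY (-0.29, adjusted p = 5.23e-05). USP9X, another such enzyme, was called higher in siSLC25A1 (0.16, adjusted p = 0.0215), siACLY (0.13, 0.0415) and siACO1 (0.17, 0.00609). DYNLL1, a dynein light chain that binds BIM, was called lower in siSLC25A1 (-0.15, adjusted p = 0.0326) and siACLY (-0.19, 0.00383). The USP9X call in siSLC25A1 was lost without siControl replicate 1 (0.14) or 3 (0.16) or siSLC25A1 replicate 2 (0.13) or 3 (0.16). In siACLY it was lost without any siControl library (0.11, 0.14 and 0.12 without replicates 1, 2 and 3) or siACLY replicate 1 (0.14) or 3 (0.09), with DESeq2 (0.12, adjusted p = 0.0675) and with no filter (0.12, edgeR adjusted p = 0.056). The DYNLL1 call in siSLC25A1 was lost without any siControl library (-0.14, -0.15 and -0.16) or siSLC25A1 replicate 1 (-0.16) or 3 (-0.10).

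Transcription factors known to act on BH3-only genes were called in 7 of 12 cases in siSLC25A1 (6 higher, 1 lower), 8 of 12 in siACLY (7 higher, 1 lower) and 8 of 12 in siACO1 (3 higher, 5 lower), beside 19.6%, 36.7% and 37.1% of all genes. EGR1, an immediate early factor, had the largest change on this list in each knockdown: 52.3 CPM in siControl, 107 in siSLC25A1, 170 in siACLY and 214 in siACO1 (log2 fold changes 1.03, 1.70 and 2.02, adjusted p = 2.92e-06, 6.95e-09 and 9.72e-10). ATF4, the main factor of the integrated stress response, fell in siACO1 from 344 to 251 CPM (-0.46 ± 0.05, adjusted p = 7.76e-09). It rose in siSLC25A1 (0.36 ± 0.05, adjusted p = 1.35e-06) and in siACLY (0.18 ± 0.05, adjusted p = 0.0035). E2F1, a factor of the cell cycle, fell in siACLY (-0.54, adjusted p = 1.87e-08) and siACO1 (-0.43, 7.19e-07) and rose in siSLC25A1 (0.24, 0.00211). TP63, a relative of p53, had the opposite signs: it fell in siSLC25A1 (-0.17, adjusted p = 0.00632) and rose in siACLY (0.20, 0.000521) and siACO1 (0.20, 0.000408). The part of any of these factors in the levels of the members was not tested.

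The 11 tested target genes of p53 outside the family were called in 3, 6 and 5 cases in siSLC25A1, siACLY and siACO1, beside 19.6%, 36.7% and 37.1% of all genes. CDKN1A, the inhibitor of cyclin-dependent kinases, rose from 1.27 CPM in siControl to 3.91 in siSLC25A1 (1.63 ± 0.19, adjusted p = 1.46e-07) and 3.60 in siACLY (1.52 ± 0.18, adjusted p = 1.43e-07), with all 6 libraries at or above 3.32 CPM and all controls at or below 1.48. ZMAT3, an RNA-binding protein, fell in siACLY (-0.39, adjusted p = 3.53e-05) and in siACO1 (-0.35, adjusted p = 0.000155), and FDXR, a mitochondrial reductase, fell in siSLC25A1 (-0.27, adjusted p = 0.0011) and rose in siACO1 (0.30, 8.57e-05). TP53INP1 was higher in siACLY (0.68, adjusted p = 0.00147) and was called higher in siACO1 (0.44, 0.0367), the latter call being lost with no filter (0.44, edgeR adjusted p = 0.0575) and without siControl replicate 2 (0.39) or 3 (0.36) or siACO1 replicate 1 (0.43) or 2 (0.37). PMAIP1, BBC3 and BAX are members that are p53 targets too. PMAIP1 was called higher in siSLC25A1 (0.34, adjusted p = 0.00689) and siACLY (0.37, 0.00143) and lower in siACO1 (-0.47, 0.000246). BBC3 was called higher in siACLY alone (0.29, adjusted p = 0.03), the call described above as lost without single libraries. BAX was not called in any knockdown. The part of p53 in these levels was not tested.

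**Figure D5:**
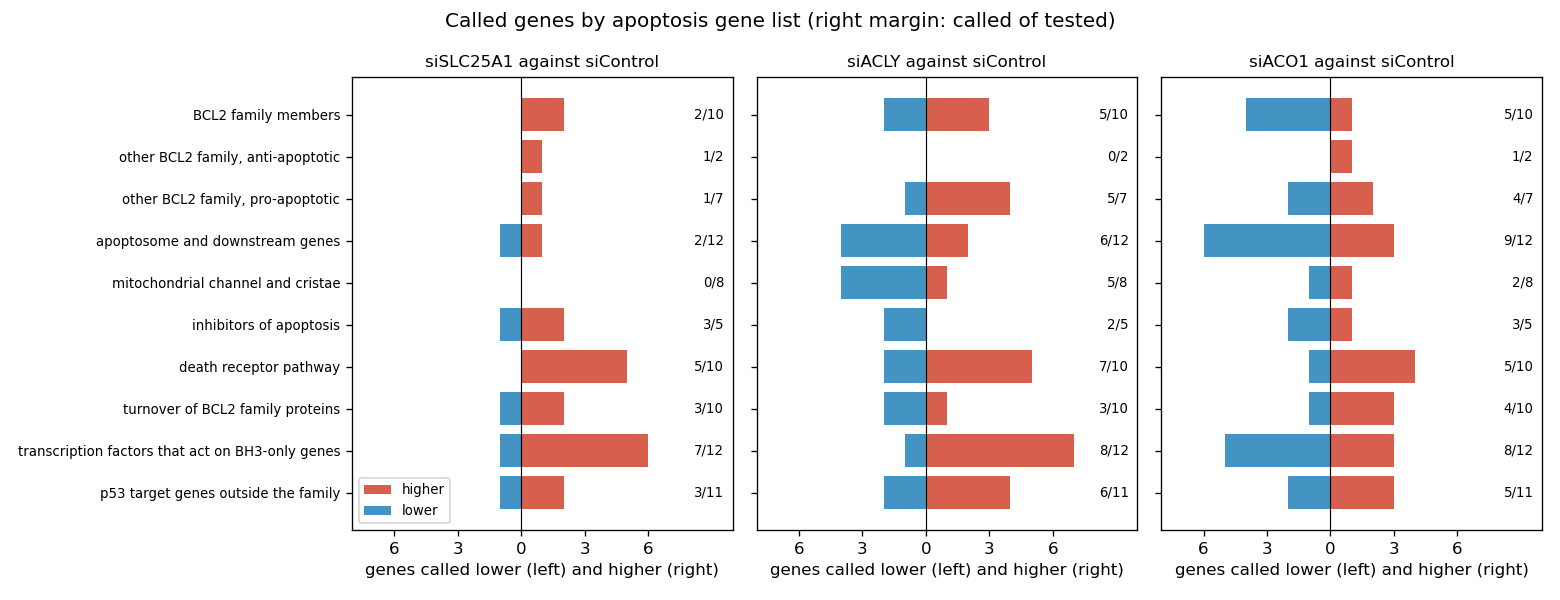
Number of genes called higher (right) and lower (left) against siControl in the 10 BCL2 family members and in 9 lists of other apoptosis genes, 1 panel per knockdown; the right margin gives genes called of genes tested. Among the members, siSLC25A1 has 2 higher and 0 lower, siACLY 3 and 2, and siACO1 1 and 4.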

How the data were processed

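Whole-number read counts per gene, not normalized, were deposited by the authors as 1 table with a column per library, per the file headers. The submitters' processing notes name STAR 2.7.0e and the builds GRCh38 and GRCm39, with no role for each; the counting tool, annotation release and strand setting are not given in the sources used here. Per the labels' protocols, poly(A) RNA was captured and cDNA was primed with random hexamers. Of 70116 identifiers, 62700 (89.4%) matched a symbol, and all members had 1 row. Genes were kept with filterByExpr and fitted in edgeR 4.0.16 (R 4.3.3), with TMM scaling and robust quasi-likelihood dispersions over the 12 libraries and 4 groups (8 residual degrees of freedom, common biological coefficient of variation 4.89%). Adjusted p-values are from two-sided F tests, adjusted by Benjamini-Hochberg over 16197 genes. Levels are TMM-scaled CPM (mean ± SD, n = 3), and coordinates, lengths and overlaps of genes are those of GENCODE release 29 on GRCh38. Scripts were tested on simulated counts.

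All 10 members and the 3 targets are named, and from each list and knockdown the called gene with the largest rise and the largest fall (if the higher group averaged 1 CPM or more). Some genes that this rule selects are not reported here. The members and lists were chosen with earlier results of these data known. The settings varied were the scaling (median-of-ratios factors; plain library totals), no filter, at least 10 counts in every library, DESeq2 1.42.0, a replicate block, a fit of only the 2 groups compared, and leaving out each library.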

Additional observations from a re-analysis of the deposited data

How the results depend on the processing

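Over 780 alternative values of the 60 member results, 731 kept direction and call, 25 lost the call, 11 gained it and 13 changed sign, all of the last in differences that were not called. Of 12 calls against siControl 11 were kept throughout, and of 19 between knockdowns 12. With library totals in place of TMM, 8 members were called in siACO1, with BCL2L1 (0.13), MCL1 (0.11) and BAX (0.14) added, all higher; BCL2L11 (0.22) was then called in siACLY, and BID (0.12) in siSLC25A1 where only the 2 groups were fitted. That scaling moved the median of all genes to 0.05 in siACLY and siACO1, and the share of calls that were higher from 50.1% to 61% in siACLY, from 47.9% to 59.5% in siACO1, from 51.8% to 41% between siSLC25A1 and siACLY and from 51.8% to 42.2% between siSLC25A1 and siACO1. The members called between siSLC25A1 and siACLY ranged from 1 to 3 as libraries were left out; apart from these 2 comparisons, counts of members stayed within 1.5 times. The cause was not tested.

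The sign changed for BCL2 in siSLC25A1 against siControl without a filter (-0.0054) and as libraries were left out (-0.0405 to 0.0319), for BBC3 in the same comparison (-0.1245 to 0.0675), and for PMAIP1 between siSLC25A1 and siACLY (-0.0635 to 0.0038). BCL2L11 between siSLC25A1 and siACLY was -0.0353 with library totals, -0.0005 without a filter, -0.0093 with at least 10 counts in every library, and -0.035 to 0.0484 as libraries were left out.

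The replicate numbers did not pair the libraries: 18 correlations of same-numbered deviations ran from -0.034 to 0.067. With the replicate number as a block, 0 of 60 member results changed, and 3270, 6038 and 6093 of all genes were called in siSLC25A1, siACLY and siACO1, against 3173, 5944 and 6008 without it. Depth limits BCL2, PMAIP1, BBC3 and BAD most, with 169 to 622 counts per library.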
